A study of Mus musculus with 18 samples.

Results

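Transcription factors that mark and specify the epithelial lineages of the lung were followed through 6 populations of sorted mouse cells. The 10 genes were *Nkx2-1*, *Foxa1*, *Foxa2*, *Gata6*, *Sox2*, *Trp63*, *Klf5*, *Cebpa*, *Etv5* and *Sox9*. They were listed by symbol and matched to their Entrez identifiers among the 27179 genes of the count files, and all 10 passed the filter on low counts that left 17989 genes for testing. RNA was sequenced from 18 libraries, with 3 libraries in each population, and every library came from a single numbered mouse. All animals were untreated C57BL/6 mice, which the study's methods describe as young adult males. The trachea of mice 1 to 3 gave NGFR-positive basal stem cells (BSC) and the NGFR-negative remainder (tracheal non-basal cells). The lungs of mice 4 to 6 gave EpCAM-positive CD104-positive airway cells, split into a CD24hi gate labelled as enriched in ciliated cells and a CD24lo gate labelled as enriched in club cells. The same lungs gave EpCAM-positive CD104lo alveolar cells and EpCAM-negative, non-epithelial cells. NGFR, CD104, CD24 and EpCAM are surface proteins used for the sort, so the level of their own transcripts is partly fixed by the gates. The study's methods also define alveolar cells as negative for CD45 and CD31. These are encoded by *Ptprc* and *Pecam1*, which are among the leukocyte and endothelial markers used below. Each gate holds a mixture of cells, and in such bulk samples fewer cells of a type and less RNA per cell cannot be told apart. Organ, mouse and sequencing depth all differ between the tracheal and the lung libraries, and their contributions to any difference between trachea and lung cannot be told apart.

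*Nkx2-1* encodes a homeodomain protein present from the first specification of lung endoderm, and the forkhead proteins FOXA1 and FOXA2 open chromatin for it and for other endodermal factors. In the developing lung, SOX2 marks the proximal tubes that become airway, while SOX9 and the FGF-responsive ETS factor ETV5 mark the distal tips. In the adult, p63 (*Trp63*) maintains airway basal cells, and C/EBPα and ETV5 act in alveolar type 2 cells, which make surfactant.

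Total counts lay between 29317215 and 32993621 in the tracheal libraries and between 9811503 and 13208897 in the lung libraries. The tracheal totals exceed the number of reads per mouse sample stated in the study's methods, and the reason is not given there. The markers of the labelled cell types were highest in their own populations, but the gates also held markers of other cells. The summed level of 7 basal cell markers was 10021 to 10871 CPM (counts scaled to a common library total) in BSC and 2303 to 3023 CPM in tracheal non-basal cells. Ciliated markers summed to 8012 to 9058 CPM in the CD24hi gate, club cell markers to 250028 to 350401 CPM in the CD24lo gate, alveolar type 2 markers to 177736 to 200310 CPM in alveolar cells and fibroblast and smooth muscle markers to 29146 to 30717 CPM in EpCAM-negative cells. Club cell markers summed to 40148 to 51870 CPM in the CD24hi gate, above its own ciliated sum. In BSC they summed to 15997 to 18734 CPM, above the basal sum. Serous gland markers summed to 11929 to 21262 CPM in BSC and 164259 to 171279 CPM in tracheal non-basal cells. The lists hold genes of unlike abundance, so sums of different lists do not give shares of cells. The 7 endothelial markers summed to 499 to 1084 CPM in the CD24lo gate, overlapping the 526 to 915 CPM in EpCAM-negative cells, to 226 to 807 CPM in CD24hi and to 185 to 352 CPM in alveolar cells. Levels of single genes are given as RPKM, which is CPM with TMM-scaled library sizes divided by the gene length in the files, and tests are edgeR quasi-likelihood tests with Benjamini-Hochberg adjusted p-values over all 17989 genes.

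Each of the 10 factors differed among the 6 populations. The background for this call was high, since 94.4% of all tested genes differed at an adjusted p under 0.05. Ranked by the F statistic of that test, *Etv5* stood 5th and *Foxa2* 20th of all genes, whereas *Sox9* stood 8095th. When the populations were ordered by level for each factor, 35 of the 50 neighbouring pairs differed, against 33.4% of the neighbouring pairs over all genes. The 5 neighbouring pairs of *Nkx2-1* all differed, and *Sox9* had the fewest separated neighbours with 2 of 5. These pairs were set by the order of the same values, so their count describes the order. No single population held the highest level of every factor. BSC were highest for *Sox2*, *Trp63*, *Foxa1* and *Klf5*, alveolar cells for *Nkx2-1*, *Gata6*, *Cebpa* and *Etv5*, CD24hi airway cells for *Foxa2* and EpCAM-negative cells for *Sox9*.

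**Figure D1:**
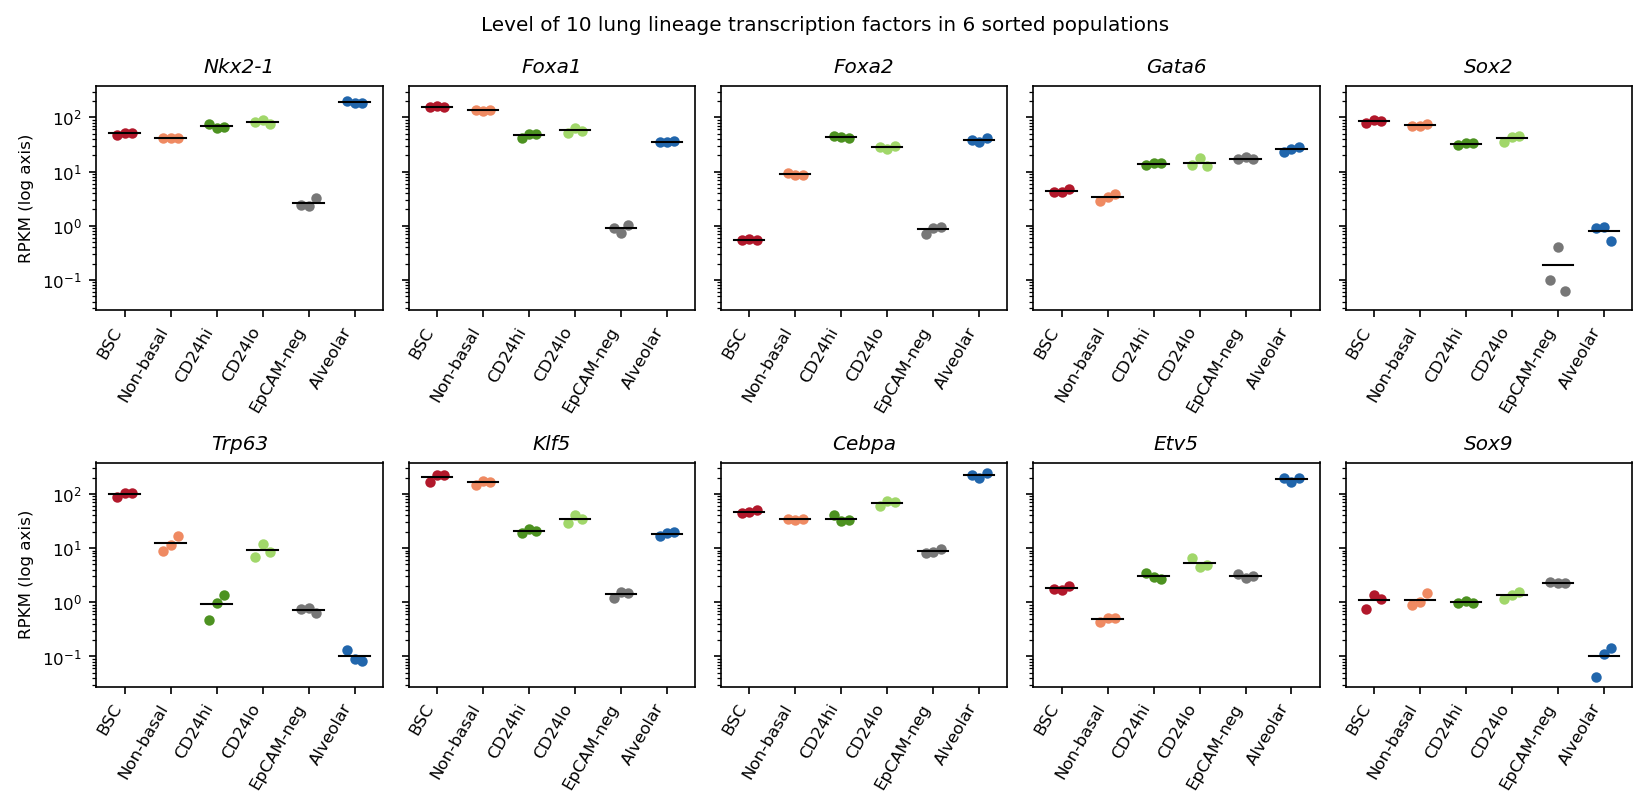
RPKM on a log axis for each of the 10 factors, with 1 point per library in 6 populations (n = 3 each) and a line at the mean. *Etv5* stood alone in alveolar cells at 166 to 199 RPKM, *Foxa2* was lowest in BSC at 0.544 to 0.572 RPKM, and *Sox9* stayed at or under 2.36 RPKM in every library.

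*Nkx2-1*, the factor shared by the whole lung epithelium, was expressed in all 5 epithelial populations and was graded from trachea to alveolus. Alveolar libraries 1 to 3 held 203, 182 and 187 RPKM. The CD24lo airway libraries held 83.7, 87.7 and 76.7 RPKM and the CD24hi libraries 75.3, 63.9 and 65.9 RPKM. In the trachea, BSC held 47.6, 51.8 and 52.1 RPKM and non-basal cells 41.3, 41.2 and 41.5 RPKM. No 2 of these epithelial populations overlapped in their libraries. The level in alveolar cells was 2.30-fold that in CD24lo airway cells (log2 fold change of CD24lo over alveolar −1.20, SE 0.10, adjusted p = 2.94e-08) and 3.77-fold that in BSC (adjusted p = 2.92e-11). The 2 tracheal populations were much closer, and BSC exceeded non-basal cells by 0.29 on the log2 scale (SE 0.10, adjusted p = 0.0263). That small difference, though present in 3 of 3 mice, no longer passed the threshold when BSC replicate 2 (adjusted p = 0.0799), BSC replicate 3 (0.0835) or any of the non-basal replicates 1, 2 and 3 (0.0613, 0.0661 and 0.0612) was left out.

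EpCAM-negative cells held 2.41, 2.28 and 3.19 RPKM of *Nkx2-1*, from 79 to 120 reads per library. This was 1.38% of the alveolar mean (log2 fold change −6.18, SE 0.13, adjusted p = 4.08e-16). In the same libraries *Epcam* itself lay at 1.65% of its alveolar mean and *Cdh1*, encoding E-cadherin, at 2.45%, while 6 of the 7 alveolar type 2 markers lay between 0.407% and 0.482% and *Abca3*, the lipid transporter of lamellar bodies, at 3.00%. The part of residual epithelial cells in the EpCAM-negative level was not tested.

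*Foxa1* and *Foxa2* encode paired forkhead factors that bind the same DNA element, and the 2 genes were distributed in opposite ways. *Foxa1* was the tracheal gene of the pair. BSC held 154, 160 and 156 RPKM and tracheal non-basal cells 138, 131 and 136 RPKM. The CD24lo airway libraries held 52.1, 64.8 and 56.4 RPKM, the CD24hi libraries 41.8, 50.2 and 48.9 RPKM and the alveolar libraries 34.5, 35.1 and 37.1 RPKM. All tracheal libraries were thus above all lung libraries, and tracheal non-basal cells exceeded CD24lo airway cells 2.33-fold (adjusted p = 3.08e-08). Within the trachea, the 3 BSC libraries lay above the 3 non-basal libraries, but the difference of 0.22 on the log2 scale (SE 0.10, 95% confidence interval 0.0053 to 0.43) did not pass the threshold (adjusted p = 0.0847). On the tracheal libraries alone it did, both without (adjusted p = 0.0168) and with each mouse fitted as a block (log2 fold change 0.21, adjusted p = 0.00143). The *Foxa1* difference also passed with voom (adjusted p = 0.03997) and with DESeq2 (0.0365). It passed as well after removal of a gene length trend (0.0192) and with library sizes unscaled by TMM (6.43e-05).

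*Foxa2* was nearly absent from BSC, where libraries 1 to 3 held 0.548, 0.572 and 0.544 RPKM from 41 to 44 reads each. Non-basal cells of the same mice held 9.53, 8.80 and 8.51 RPKM. The highest levels were in the lung, with 45.5, 43.3 and 41.0 RPKM in the CD24hi gate, 38.0, 34.6 and 41.3 RPKM in alveolar cells and 28.7, 25.8 and 29.9 RPKM in the CD24lo gate. The BSC libraries were far below every other epithelial library and also below the EpCAM-negative ones, which held 0.717, 0.893 and 0.967 RPKM. *Foxa2* was 16.04-fold higher in non-basal cells than in BSC (log2 fold change of BSC over non-basal −4.004, SE 0.11, adjusted p = 4.58e-13) and 68.1-fold higher in alveolar cells than in BSC (adjusted p = 1.52e-16). Between the airway gates it was 1.54-fold higher in CD24hi than in CD24lo cells (adjusted p = 1.09e-05), opposite in sign to *Foxa1*, which was 1.23-fold higher in CD24lo cells (adjusted p = 0.0190). The *Foxa1* difference between the airway gates did not pass with the mouse as a block (adjusted p = 0.0934), with library sizes unscaled by TMM (log2 fold change −0.0036, adjusted p = 0.983) or without CD24hi replicate 1 (adjusted p = 0.0565) or CD24lo replicate 2 (adjusted p = 0.109). CD24hi and alveolar cells overlapped in *Foxa2*, with a difference of 0.19 on the log2 scale (95% confidence interval 0.0029 to 0.37, adjusted p = 0.0727).

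Since RPKM is a per-length level, the 2 genes can be set against each other. The ratio of *Foxa1* to *Foxa2* was 279 to 287 in the BSC libraries and 14.4 to 15.98 in tracheal non-basal cells. It was 1.82 to 2.51 in the CD24lo gate, 0.918 to 1.19 in the CD24hi gate and 0.897 to 1.01 in alveolar cells. The sum of both genes was 157 ± 2.67 RPKM in BSC and 144 ± 3.78 RPKM in non-basal cells (mean ± SD, n = 3). It was 90.2 ± 3.11 RPKM in CD24hi, 85.9 ± 4.93 RPKM in CD24lo and 73.5 ± 4.46 RPKM in alveolar cells. Between the highest and lowest epithelial means, *Foxa1* alone spanned 4.41-fold and *Foxa2* alone 78.0-fold. A ratio and a sum of the same genes are unlike measures, so their ranges were not compared. In EpCAM-negative cells the sum was 1.75 ± 0.229 RPKM. The third member of the family, *Foxa3*, peaked in tracheal non-basal cells at 4.54 ± 0.0222 RPKM and was 25.5-fold lower in BSC (adjusted p = 1.24e-09), so that both *Foxa2* and *Foxa3* were higher in the NGFR-negative tracheal cells.

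**Figure D2:**
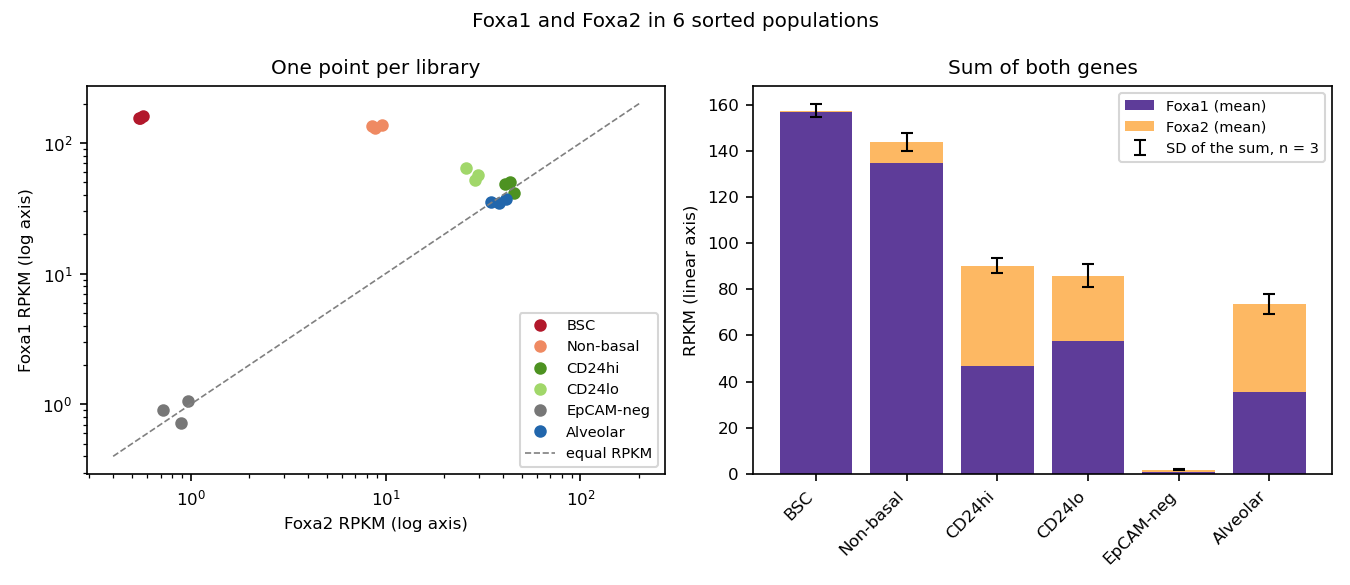
Left, *Foxa1* against *Foxa2* in RPKM on log axes with 1 point per library and a dashed line of equal level. Right, stacked mean RPKM of both genes on a linear axis with the SD of the sum (n = 3). The 3 BSC libraries lie at 154 to 160 RPKM of *Foxa1* and under 0.6 RPKM of *Foxa2*, while CD24hi and alveolar libraries lie along the line.

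The promoter sequences of these 2 genes and of *Etv5*, the factor with the largest F statistic, are shown so that the members with the sharpest differences between populations can be read next to their values. They were taken from RefSeq on GRCm38.p6 and run 5′ to 3′ on the minus strand, from 250 bases before to 50 bases after the most upstream start site in the table. Capitals mark exact matches, on either strand, to a forkhead element, a CCAAT box and a GC box, which do not overlap one another here. The windows are chr12:57546062-57546361 for *Foxa1*, chr2:148046920-148047219 for *Foxa2* and chr16:22439521-22439820 for *Etv5*. The *Foxa1* start site lies inside the gene span of the RefSeq gene annotation, which begins further upstream.
Foxa1: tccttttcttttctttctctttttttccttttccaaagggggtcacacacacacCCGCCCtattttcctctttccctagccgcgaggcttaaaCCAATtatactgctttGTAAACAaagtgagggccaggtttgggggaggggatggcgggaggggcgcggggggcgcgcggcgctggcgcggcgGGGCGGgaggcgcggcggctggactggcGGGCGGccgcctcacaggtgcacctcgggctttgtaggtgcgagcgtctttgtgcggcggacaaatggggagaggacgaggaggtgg
Foxa2: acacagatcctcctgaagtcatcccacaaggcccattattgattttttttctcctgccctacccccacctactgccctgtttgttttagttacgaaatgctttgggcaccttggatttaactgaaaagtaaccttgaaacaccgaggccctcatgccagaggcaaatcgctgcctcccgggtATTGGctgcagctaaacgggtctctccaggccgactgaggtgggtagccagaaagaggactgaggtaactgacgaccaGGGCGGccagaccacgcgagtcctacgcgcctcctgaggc
Etv5: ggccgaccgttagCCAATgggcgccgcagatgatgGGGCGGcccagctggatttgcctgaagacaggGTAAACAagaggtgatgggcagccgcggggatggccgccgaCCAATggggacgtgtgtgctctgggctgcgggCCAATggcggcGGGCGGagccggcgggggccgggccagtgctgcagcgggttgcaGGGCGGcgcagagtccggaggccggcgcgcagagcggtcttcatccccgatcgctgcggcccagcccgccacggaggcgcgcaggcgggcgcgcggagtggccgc
The forkhead element, TGTTTAC, was present 1 time in the *Foxa1* window, 0 times in the *Foxa2* window and 1 time in the *Etv5* window, and 3.6% of the 32851 promoters in the table hold it. A CCAAT box, searched by the letters of its name, was present 1, 1 and 3 times and is held by 37.4% of all promoters. The GC box, GGGCGG, was present 3, 1 and 3 times and is held by 35.7%. The windows hold 26, 12 and 37 CpG dinucleotides, against a median of 7 over all promoters. These matches describe the letters of the windows and were not measured as binding sites. The table held promoters for 6 of the 10 factors.

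*Gata6*, a zinc finger factor of lung endoderm and also of mesenchyme, was, beside *Sox9*, the member least confined to epithelium. Alveolar cells held 23.1, 26.4 and 28.4 RPKM and EpCAM-negative cells 16.9, 18.2 and 16.9 RPKM. The CD24lo gate held 13.1, 17.8 and 12.5 RPKM and the CD24hi gate 13.0, 14.6 and 14.4 RPKM. The tracheal populations were lowest, at 4.17, 4.14 and 4.81 RPKM in BSC and 2.89, 3.45 and 3.79 RPKM in non-basal cells. EpCAM-negative cells thus kept 66.8% of the alveolar mean, in contrast to 1.38% for *Nkx2-1*, and the difference from alveolar cells was −0.58 on the log2 scale (SE 0.13, adjusted p = 6.67e-04). EpCAM-negative and both airway gates overlapped in pairs next to each other, whereas CD24lo airway cells exceeded tracheal non-basal cells 4.28-fold (adjusted p = 1.27e-09). BSC exceeded non-basal cells by 0.37 (SE 0.13, adjusted p = 0.0268), a call that was lost without BSC replicate 3 (adjusted p = 0.116), non-basal replicate 1 (0.138) or non-basal replicate 2 (0.0524). Endothelial markers, given above for the lung gates, summed to at most 3.26 CPM in the trachea, where *Gata6* was lowest, with 3 of the 7 at 0 reads in BSC, and their part in the *Gata6* level was not tested. In the GENCODE annotation, 1.43% of the exonic bases of *Gata6* are shared with an antisense gene, and the strand setting of the counting is not given in the sources used here.

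*Sox2*, *Trp63* and *Klf5*, the airway members, all had their highest level in BSC. *Sox2*, which maintains proximal airway identity, was high in both tracheal populations, with 78.9, 88.5 and 86.5 RPKM in BSC and 68.1, 68.6 and 76.8 RPKM in non-basal cells. The CD24lo airway libraries held 35.9, 43.8 and 45.9 RPKM and the CD24hi libraries 30.4, 34.4 and 33.3 RPKM. Alveolar cells held 0.897, 0.936 and 0.534 RPKM, from 13 to 25 reads. Airway and alveolar libraries were therefore widely separated, and *Sox2* was 52.4-fold higher in CD24lo airway cells than in alveolar cells of the same mice (log2 fold change 5.71, SE 0.23, adjusted p = 1.55e-12). The 2 tracheal populations did not overlap, but their difference of 0.25 (SE 0.16, 95% confidence interval −0.08 to 0.58) did not pass (adjusted p = 0.1997) except in the fits on those libraries alone, without the mouse as a block (adjusted p = 0.0118) and with it (adjusted p = 5.64e-04), after removal of a gene length trend (0.0294) and with unscaled library sizes (0.00329). In EpCAM-negative cells only 3, 12 and 2 reads were counted, and the log2 fold change against alveolar cells was −2.10 (SE 0.40, adjusted p = 1.98e-04). Without EpCAM-negative replicate 2, the library with 12 reads, it was −3.28 (adjusted p = 1.55e-06).

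*Trp63*, whose protein p63 is required for basal cells, had the widest range of the 10 factors. BSC held 86.8, 102 and 104 RPKM. Tracheal non-basal cells held 8.93, 11.3 and 16.9 RPKM, the CD24lo gate 6.78, 11.9 and 8.57 RPKM and the CD24hi gate 0.474, 0.979 and 1.35 RPKM. EpCAM-negative cells held 0.756, 0.791 and 0.629 RPKM, from 50 to 58 reads, and overlapped the CD24hi libraries. Alveolar cells held 0.131, 0.0912 and 0.0833 RPKM, from 9, 6 and 5 reads. *Trp63* was 6.98-fold higher in EpCAM-negative than in alveolar cells (adjusted p = 1.21e-04). BSC were separated from all others, and the non-basal and CD24lo libraries overlapped. *Trp63* was 7.86-fold higher in BSC than in non-basal cells (log2 fold change 2.97, SE 0.26, adjusted p = 5.36e-08) and 9.73-fold higher in CD24lo than in CD24hi cells (adjusted p = 5.02e-08). Non-basal and CD24lo cells differed by 0.45 (95% confidence interval −0.08 to 0.98, adjusted p = 0.141), which passed without CD24lo replicate 2 (log2 fold change 0.69, adjusted p = 0.0435) and after removal of a gene length trend (0.59, adjusted p = 0.0473).

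The gates that should lack basal cells held basal cell markers beside *Trp63*. Tracheal non-basal libraries held 9.16% to 17.4% of the mean BSC level of *Trp63*. In the same libraries *Krt5*, a basal keratin, was at 6.72% to 8.45%, *Dsg3*, a desmosomal cadherin, at 5.80% to 7.21%, *Ngfr*, the gene of the sorting marker, at 7.87% to 11.8% and *Krt15* at 42.4% to 57.1%. In the CD24lo gate the share of *Trp63* was 6.95% to 12.2%, higher than that of *Krt5* (2.08% to 3.899%) and overlapping that of *Ngfr* (5.79% to 8.57%), while *Dsg3* had no read in at least 1 library and at most 0.153% of the BSC mean. All 7 basal markers were detected in non-basal cells, none at 0 reads, and their summed level was 338 to 545 CPM in CD24lo, 37.7 to 44.0 CPM in CD24hi, 29.7 to 35.0 CPM in EpCAM-negative and 6.08 to 8.74 CPM in alveolar cells. *Dsg3* was at 0 reads throughout the CD24hi and EpCAM-negative gates. The part of basal cells in the *Trp63* level of these gates was not tested.

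**Figure D3:**
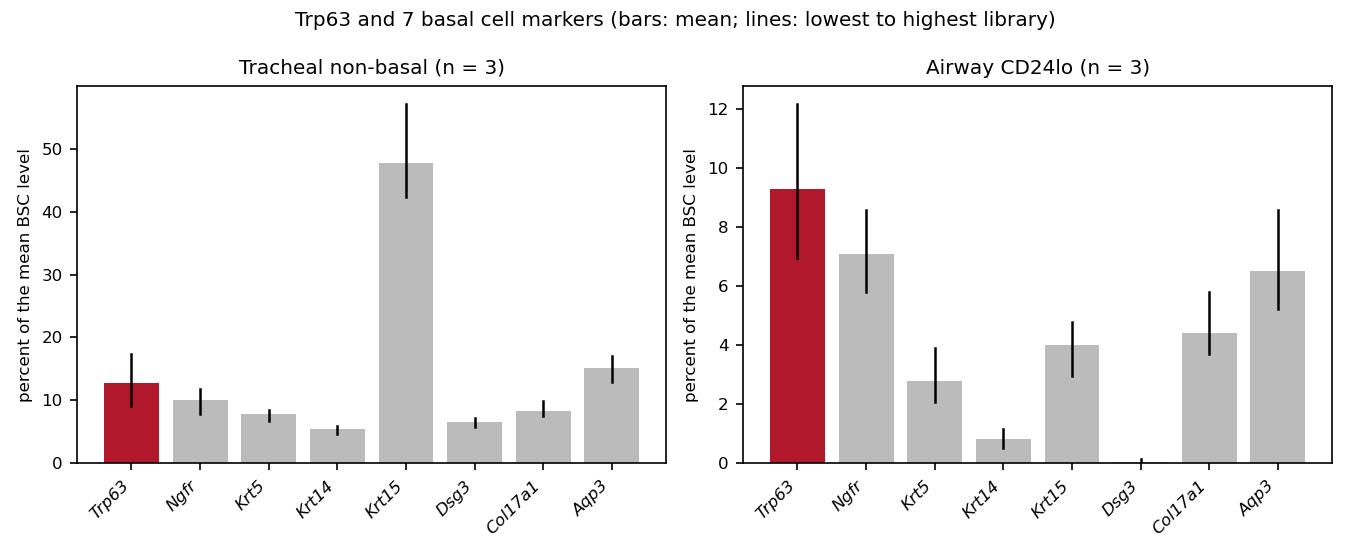
Mean level of *Trp63* (red) and of 7 basal cell markers (grey) as a percent of the mean BSC level, in tracheal non-basal and CD24lo airway cells, with lines from the lowest to the highest of 3 libraries. In non-basal cells *Trp63* was at 12.7% beside *Krt5* at 7.79% and *Krt15* at 47.8%, and in CD24lo cells at 9.30% beside *Krt5* at 2.78%.

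*Klf5*, a zinc finger factor of proliferating and injured epithelium, followed the same order as *Foxa1* and *Sox2*. BSC held 166, 220 and 226 RPKM and tracheal non-basal cells 148, 176 and 169 RPKM. The CD24lo airway libraries held 28.9, 40.2 and 34.8 RPKM, the CD24hi libraries 19.2, 22.7 and 20.7 RPKM and the alveolar libraries 17.0, 18.6 and 19.7 RPKM. The tracheal libraries were all above the lung libraries, and non-basal cells exceeded CD24lo airway cells 4.74-fold (adjusted p = 6.03e-10). BSC and non-basal libraries overlapped, with a difference of 0.31 (SE 0.13, 95% confidence interval 0.04 to 0.58, adjusted p = 0.0525), and BSC were higher in 3 of 3 mice. On the tracheal libraries alone the same difference passed without (adjusted p = 0.0431) and with the mouse as a block (log2 fold change 0.30, adjusted p = 1.96e-04), as it did without BSC replicate 1 (log2 fold change 0.44, adjusted p = 0.00831). It also passed with voom (adjusted p = 0.0373), after removal of a gene length trend (0.00374) and with unscaled library sizes (1.38e-04). CD24hi and alveolar cells overlapped and differed by 0.18 (95% confidence interval −0.11 to 0.47, adjusted p = 0.272).

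*Cebpa* and *Etv5*, the type 2 cell members, peaked in alveolar cells but differed in how far they extended into the airway. *Cebpa* was present in every epithelial population. Alveolar cells held 223, 199 and 246 RPKM, CD24lo airway cells 60.9, 74.2 and 72.0 RPKM and BSC 44.1, 46.8 and 49.96 RPKM. The CD24hi gate held 40.9, 31.5 and 32.9 RPKM, tracheal non-basal cells 33.8, 32.7 and 34.8 RPKM and EpCAM-negative cells 7.95, 8.55 and 9.50 RPKM. Alveolar libraries were above all others, and the CD24hi and non-basal libraries overlapped. *Cebpa* was 3.23-fold higher in alveolar than in CD24lo cells (adjusted p = 1.38e-09), 1.97-fold higher in CD24lo than in CD24hi cells (adjusted p = 1.08e-06) and 1.39-fold higher in BSC than in non-basal cells (adjusted p = 0.00196). C/EBPα also acts in myeloid cells, and 8 leukocyte markers summed to 3710 to 4080 CPM in alveolar cells and to 68.1 to 284 CPM elsewhere. None of these markers was at 0 reads in alveolar cells. Among them *Cd74*, which type 2 cells also express, was at 2698 ± 141 RPKM there. The pan-leukocyte gene *Ptprc* was at 0.854 ± 0.385 RPKM, but it encodes CD45, so the sort partly fixes this level. The part of leukocytes in the *Cebpa* level was not tested. An antisense gene shares 1.93% of the exonic bases of *Cebpa*.

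*Etv5*, the ETS factor downstream of FGF receptors, was close to restricted to alveolar cells, where libraries 1 to 3 held 193, 166 and 199 RPKM. The CD24lo gate held 6.67, 4.47 and 4.97 RPKM, the EpCAM-negative gate 3.30, 2.83 and 3.05 RPKM and the CD24hi gate 3.46, 2.91 and 2.65 RPKM. The trachea was lowest, with 1.79, 1.67 and 2.01 RPKM in BSC and 0.437, 0.515 and 0.503 RPKM in non-basal cells. *Etv5* was 34.5-fold higher in alveolar than in CD24lo cells (log2 fold change of CD24lo over alveolar −5.11, SE 0.15, adjusted p = 1.36e-13) and 102-fold higher in alveolar cells than in BSC (adjusted p = 1.46e-15). At these low tracheal levels it was still 3.75-fold higher in BSC than in non-basal cells, with no overlap (log2 fold change 1.91, SE 0.16, adjusted p = 2.39e-08). Alveolar type 2 markers summed to 7464 to 9793 CPM in the CD24lo gate and to 1796 to 2872 CPM in the CD24hi gate, and their part in the airway *Etv5* level was not tested. Between BSC and alveolar cells the other ETS factors of its group went the other way. *Etv4* was at 1.67 ± 0.337 RPKM in BSC and 0.211 ± 0.130 RPKM in alveolar cells (adjusted p = 2.16e-06) and *Etv1* at 1.72 ± 0.147 and 0.423 ± 0.106 RPKM (adjusted p = 1.97e-07). In non-basal cells *Etv4* was at 0.308 RPKM, lower than in BSC as *Etv5* was (adjusted p = 3.04e-06). *Etv1* was higher there, at 2.49 RPKM (adjusted p = 0.0120).

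*Sox9*, the marker of embryonic distal tips and of cartilage, was at low levels in all of these adult populations. EpCAM-negative cells held 2.36, 2.27 and 2.26 RPKM, from 114 to 123 reads. CD24lo libraries held 1.13, 1.37 and 1.55 RPKM, CD24hi libraries 0.983, 1.05 and 0.967 RPKM, BSC 0.761, 1.34 and 1.14 RPKM and tracheal non-basal cells 0.879, 1.01 and 1.48 RPKM. Alveolar cells were lowest, with 2, 5 and 6 reads and 0.0425, 0.111 and 0.146 RPKM. The airway and tracheal libraries overlapped, and none of their neighbouring pairs differed (adjusted p between 0.364 and 0.863). Alveolar cells stood apart, since *Sox9* was 13.6-fold higher in CD24lo cells (log2 fold change 3.76, SE 0.37, adjusted p = 1.55e-07) and 23.1-fold higher in EpCAM-negative cells (adjusted p = 2.62e-09). Of 8 cartilage markers, 6 passed the filter, and the 8 summed to 10.8 to 22.9 CPM in EpCAM-negative cells and at most 4.43 CPM in any other library. Their part in the *Sox9* level was not tested.

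In the comparison of the tracheal gates, BSC exceeded non-basal cells of the same mice in 5 factors and were lower in 1, *Foxa2*, where 48.2% of all tested genes differed, 21.9% higher and 26.2% lower. The libraries of the 2 populations did not overlap for 8 of the 10 factors, nor for 64.9% of all genes. The median log2 fold change of the 10 factors was 0.30, beside −0.02 over all genes. Fitted on these libraries alone, 8 factors were higher and 1 lower both without and with the mouse as a block, and *Sox9* alone did not pass. BSC against alveolar cells separated all 10, with 5 higher (*Sox2*, *Trp63*, *Foxa1*, *Sox9* and *Klf5*) and 5 lower (*Nkx2-1*, *Foxa2*, *Gata6*, *Cebpa* and *Etv5*), where 66.1% of all genes differed, 30.5% higher and 35.6% lower. None of the 10 overlapped, and neither did 74.7% of all genes. CD24lo airway against alveolar cells gave 5 higher (*Sox2*, *Trp63*, *Foxa1*, *Sox9* and *Klf5*) and 5 lower (*Nkx2-1*, *Foxa2*, *Gata6*, *Cebpa* and *Etv5*) at a background of 48.4% (24.2% higher and 24.2% lower). Again none of the 10 overlapped, beside 55.7% of all genes. The 2 comparisons share the alveolar libraries, so they are not independent. *Foxa1* was at 2.14 on the log2 scale in the first and 0.70 in the second, and *Foxa2* at −6.09 and −0.43.

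CD24hi differed from CD24lo airway cells in 7 factors at a background of 55.0% (27.8% higher and 27.2% lower), with *Foxa2* higher and *Nkx2-1*, *Trp63*, *Foxa1*, *Cebpa*, *Etv5* and *Klf5* lower. The 2 gates did not overlap for 9 of the 10, beside 53.9% of all genes. The median over the 10 factors was −0.39, beside −0.06 over all genes. The decreases of *Nkx2-1* and *Foxa1* were the smallest, at −0.27 and −0.30, and neither held under all alternatives. *Nkx2-1* did not pass on the compared libraries alone (adjusted p = 0.133), with the mouse as a block (0.132), with unscaled library sizes (0.932) or without CD24hi replicate 2 (0.111) or 3 (0.0822) or CD24lo replicate 1 (0.0603) or 2 (0.102). *Foxa1* also lost its call on the compared libraries alone (adjusted p = 0.132) and after removal of a gene length trend (0.0546), besides the settings given above. *Sox2* did not pass in the fit across all libraries (log2 fold change −0.36, adjusted p = 0.0679) and passed with the block (adjusted p = 0.0495), with voom (0.0162), with DESeq2 (0.00801), after removal of a gene length trend (0.0475) and without CD24lo replicate 1 (0.0225). EpCAM-negative cells differed from alveolar cells in all 10 factors at a background of 61.9% (32.7% higher and 29.2% lower), with *Trp63* and *Sox9* higher and 8 lower. No factor overlapped, beside 72.0% of all genes without overlap. Their median was −4.19, beside 0.01 over all genes. Tracheal non-basal against CD24lo airway cells gave 3 higher (*Sox2*, *Foxa1* and *Klf5*) and 5 lower (*Nkx2-1*, *Foxa2*, *Gata6*, *Cebpa* and *Etv5*) at a background of 53.1% (25.3% higher and 27.8% lower), and the libraries did not overlap for 8 of the 10, beside 59.4% of all genes.

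**Figure D4:**
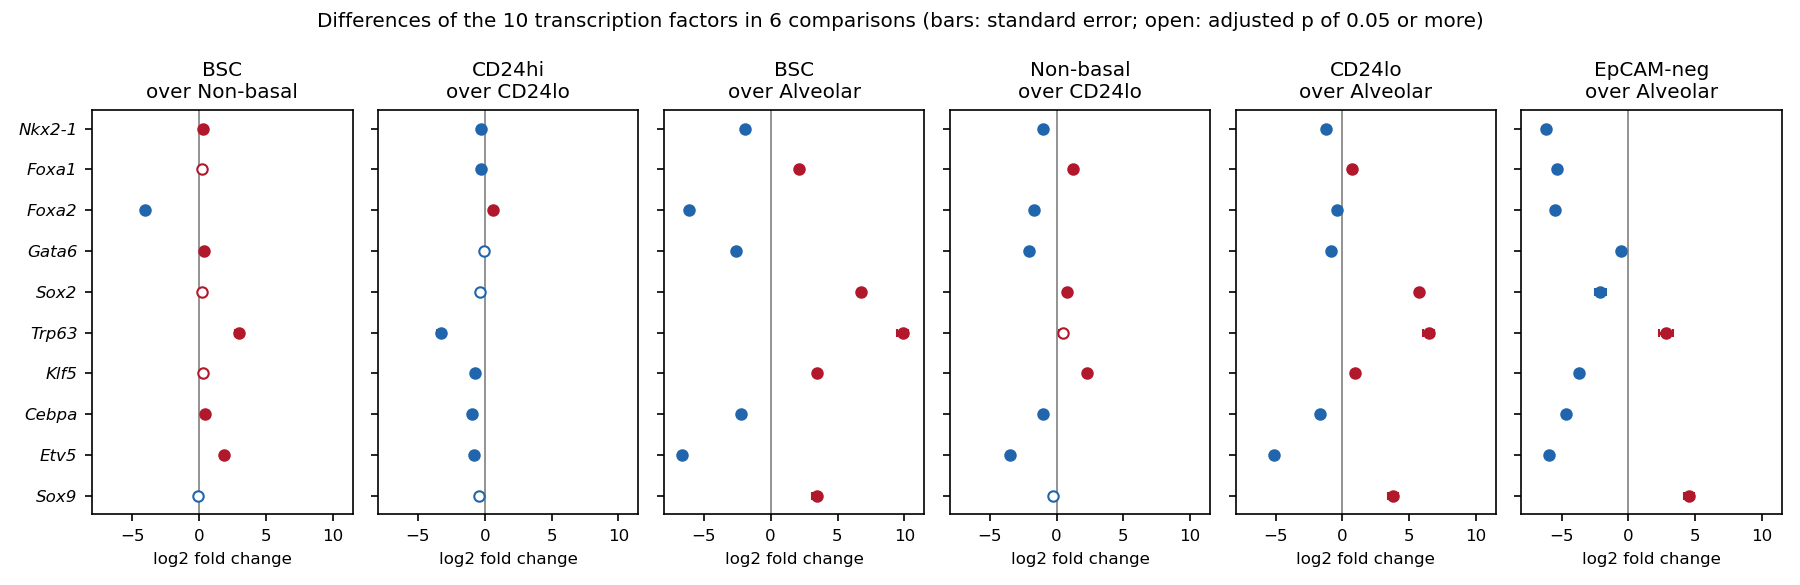
Log2 fold change with its standard error for the 10 factors in 6 comparisons, each headed by the population in the numerator over the one in the denominator. Filled points passed an adjusted p of 0.05. *Trp63* ran to 9.88 in BSC over alveolar cells, *Etv5* to −6.67. In BSC over non-basal cells the largest differences were *Foxa2* at −4.004, *Trp63* at 2.97 and *Etv5* at 1.91, and in CD24hi over CD24lo cells *Trp63* at −3.28, *Cebpa* at −0.98 and *Etv5* at −0.84.

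Among 27 paralogues of the factors, 20 passed the filter. Of all tested genes, 48.2% differed in BSC against non-basal cells, 66.1% in BSC against alveolar and 48.4% in CD24lo against alveolar cells. The share was 55.0% between the airway gates, 61.9% in EpCAM-negative against alveolar and 53.1% in non-basal against CD24lo cells. These shares are the background for the counts of this list and of those below. In BSC against non-basal cells 7 were higher and 4 lower, with *Klf4* at 240 ± 40.8 against 70.5 ± 14.0 RPKM (adjusted p = 8.99e-08) and *Klf6* at 620 ± 136 against 387 ± 86.0 RPKM (adjusted p = 0.0220). Without BSC replicate 2 or 3, only 4 paralogues were called higher, and with the mouse as a block 7 were called lower. In CD24hi against CD24lo cells 2 were higher and 12 lower. *Trp73*, the p53 family member of multiciliated cells, was 8.78-fold higher in the CD24hi gate (adjusted p = 2.13e-08), opposite in sign to *Trp63*. In EpCAM-negative against alveolar cells 13 paralogues were higher and 3 lower, with *Gata5* at 11.95 ± 0.0435 against 1.05 ± 0.340 RPKM and *Cebpd* at 216 ± 16.1 against 77.4 ± 6.82 RPKM (adjusted p = 1.41e-09 and 3.26e-05). Without EpCAM-negative replicate 1 or alveolar replicate 2, 1 paralogue was called lower there. The remaining comparisons gave 11 higher and 3 lower for BSC against alveolar cells, 12 and 1 for CD24lo against alveolar cells and 6 and 6 for non-basal against CD24lo cells. The single lower call in CD24lo against alveolar cells became 0 without CD24lo replicate 2 or 3 or alveolar replicate 1.

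Products listed as dependent on NKX2-1 were mostly lower in BSC than in non-basal cells. Of 15 such genes, among them those for surfactant proteins, secretoglobins and lamellar body proteins, 0 were higher and 11 lower in BSC. Their median log2 fold change was −2.64. *Nkx2-1* itself was 1.22-fold higher in BSC, a call lost without BSC replicate 2 or 3 or any 1 non-basal replicate. *Scgb3a2*, a secretoglobin of club cells, was at 2062 ± 254 RPKM in BSC and 12872 ± 674 RPKM in non-basal cells. Against alveolar cells, 13 of 15 were lower in BSC and 2 higher, and 12 were lower and 3 higher in CD24lo cells. CD24hi cells were lower than CD24lo cells in 14 and higher in 1, *Cldn18*, a tight junction protein (113 ± 2.78 against 31.0 ± 12.5 RPKM). EpCAM-negative cells were lower than alveolar cells in 13 of 15 and higher in 0, and non-basal cells were lower than CD24lo cells in 11 and higher in 2. Several of these products are also markers of club or type 2 cells, and *Cldn18* is in the list of alveolar type 1 markers. The sorts therefore set part of these outcomes, and the part of NKX2-1 was not tested.

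Of the basal genes associated with p63, 20 of 20 were higher in BSC than in non-basal cells, beside 21.9% of all genes. Their median log2 fold change was 2.72, beside 2.97 for *Trp63*. Among them *Krt5*, *Krt14*, *Krt15*, *Dsg3* and *Col17a1* also serve as basal cell markers here. A sort of basal from non-basal cells therefore sets much of this outcome, and the part of p63 was not tested. The list holds *Ngfr*, on which the tracheal cells were sorted, and *Itgb4*, which encodes CD104, the marker that separates the airway from the alveolar gate (28.5-fold higher in CD24lo than in alveolar cells). In CD24hi against CD24lo cells 13 were lower and 3 higher. Against alveolar cells, 18 were higher and 1 lower in BSC, 14 higher and 4 lower in CD24lo cells and 6 higher and 7 lower in EpCAM-negative cells. Alveolar cells held 87.3 ± 1.81 RPKM of *Lamb3*, a basement membrane gene, at 0.104% of the BSC level of *Trp63*. Non-basal cells were higher than CD24lo cells in 14 and lower in 0. The single lower call of BSC against alveolar cells became 0 without BSC replicate 1 or 2 or alveolar replicate 2 or 3, and 1 or 2 genes were called lower in non-basal than in CD24lo cells without non-basal replicate 3 or CD24lo replicate 2 or 3.

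The FGF genes around *Etv5* were split by population. Of 17 genes, 11 were higher and 3 lower in BSC than in non-basal cells, in the direction of *Etv5*, with *Dusp6*, a phosphatase induced by ERK signalling, at 184 ± 37.4 against 70.6 ± 10.1 RPKM. Against alveolar cells the same list gave 5 higher and 9 lower in BSC, 7 and 9 in CD24lo cells and 8 and 7 in EpCAM-negative cells. *Dusp6* was at 18.4 ± 2.15 RPKM in alveolar cells, where *Etv5* peaked, while *Spry1* was at 83.9 ± 3.55 RPKM there and 39.3 ± 4.74 RPKM in BSC, and the receptor *Fgfr2* at 182 ± 7.86 and 101 ± 1.36 RPKM. The ligands *Fgf7* and *Fgf10* were at 49.7 ± 1.47 and 21.5 ± 0.414 RPKM in EpCAM-negative cells and under 4 RPKM in every epithelial mean. CD24hi cells were lower than CD24lo cells in 11 and higher in 0 (1 without CD24lo replicate 1), and non-basal cells were lower than CD24lo cells in 11 and higher in 2.

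The genes whose pattern was most like each factor were ranked by Pearson correlation of log2(RPKM + 0.1) over the 18 libraries, among the 12119 genes whose mean reached 5 CPM. The points share libraries and fall into 6 populations, so these values describe likeness of pattern. The closest match of the whole set was *Grhl2*, an epithelial grainyhead factor, to *Foxa1* (r = 0.996), followed there by *Esrp1*, *Ripk4*, *Il17re* and *Ttc6*. *Ngfr* was closest to *Trp63* (r = 0.978), before *Papln*, *Trim29*, *Defb1* and *Tmem132a*. *Adam28* was closest to *Sox2* (r = 0.991), *Adgrg1* to *Nkx2-1* (r = 0.987), with the Iroquois factor *Irx3* also among its 5, and *Phldb3* to *Klf5* (r = 0.987). *Gpd1* was closest to *Foxa2* (r = 0.980), at 0.760 RPKM in BSC and 75.9 RPKM in CD24hi cells. *Cdc42bpa* was closest to *Gata6* (r = 0.991), *Myh7* to *Cebpa* (r = 0.979) and *Tgm4* to *Etv5* (r = 0.983), with the fatty acid genes *Fabp5* and *Elovl1* also among the 5. *Dennd5b* was closest to *Sox9*, at the lowest r of the 10 (0.952).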

How the data were processed

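Single-end reads, written by bcl2fastq 1.8.4, were mapped by the authors to mm10 (Rsubread). The authors assigned them to Entrez genes with featureCounts and its built-in RefSeq annotation, and deposited raw read counts per gene for each of the 18 libraries (aligner and counter versions and the strand setting are not given in the sources used here). The study's filter (3 or more libraries with a CPM over 0.2) was applied, and library sizes were scaled by TMM. A quasi-likelihood model of the 6 populations was fitted to the counts (edgeR 4.0.16 in R 4.3.3, limma 3.58.1), with the p-values adjusted by Benjamini-Hochberg over 17989 genes and called under 0.05, and the standard error taken as the log2 fold change over the root of its F statistic. The study itself used voom, which was run as an alternative beside DESeq2 1.42.0, other scalings and filters, a correction for gene length, a fit on the compared libraries alone and leaving out each library. The test of BSC against alveolar cells was also run on simulated counts in which few genes changed. That setting cannot check the library scaling for data in which many genes differ. RPKM used the gene lengths in the files. Total counts ran from 9811503 to 32993621, and at these depths a level resting on fewer than about 10 reads carries a large counting error.

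Groups came from the labels. Populations of an organ were sorted from the same numbered mice, so the mouse number pairs them, and a fit with the mouse as a block was made for each comparison within an organ. Deviations of same-mouse libraries from their group means correlated at 0.336, 0.117 and 0.218 for BSC and non-basal cells, 0.278, 0.0439 and 0.175 for CD24hi and CD24lo cells, 0.0333, −0.0592 and 0.0680 for CD24lo and alveolar cells and −0.0362, 0.0931 and 0.00770 for EpCAM-negative and alveolar cells. No replicate pair was within sampling noise (lowest chi-square per degree of freedom 3.50). Replicate 1 stood apart in BSC (23.4 and 29.7, against 5.70 for replicates 2 and 3). It also did in non-basal (21.6 and 21.2 against 5.23), CD24hi (33.2 and 39.6 against 5.54) and CD24lo cells (24.2 and 24.8 against 7.43). In alveolar cells replicate 2 stood apart (38.1 and 36.2, against 5.70). The library apart was thus from mouse 4 in the airway gates and mouse 5 in alveolar cells. The cause was not tested.

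The genes named were the 10 factors, the genes of 5 lists (paralogues, other transcription factors, NKX2-1-dependent products, p63-associated basal genes and FGF response) and, for each factor, the 5 genes with the most similar pattern. The factors and the lists were chosen with earlier results of these data known. Some of the named list genes were picked for illustration after their values were seen. Exonic overlaps came from GENCODE vM21 and promoters from RefSeq. A table of the whole series repeats the same counts and was not used.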

Additional observations from a re-analysis of the deposited data

How the results depend on the processing

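Over 60 combinations of factor and comparison, 49 kept their direction and their side of the threshold under all 15 alternatives, including 47 of the 51 that passed. Of 900 alternative values, 850 did so, 23 newly passed, 20 no longer passed and 7 changed sign. All 7 were at or under 0.29 and did not pass. In BSC against non-basal cells *Sox9* changed sign with library size alone (0.29) and with a gene length trend removed (0.0106). It also did without BSC replicate 1 (0.14) or non-basal replicate 3 (0.19), in a range of −0.24 to 0.19 with single libraries left out. In CD24hi against CD24lo cells *Nkx2-1* changed sign with library size alone (0.0132). *Gata6* did so there with library size alone (0.25) and without CD24lo replicate 2 (0.12), in a range of −0.14 to 0.12 with single libraries left out. The cause was not tested. Library size alone moved the median of all genes from −0.02 to 0.31 in BSC against non-basal cells (7780 higher and 2989 lower, in place of 3948 and 4720), from −0.09 to 0.29 in BSC against alveolar cells (7924 and 4363, in place of 5485 and 6410), from −0.06 to 0.21 between the airway gates (7002 and 3233, in place of 4998 and 4901) and from 0.01 to 0.19 in EpCAM-negative against alveolar cells (6938 and 4121, in place of 5875 and 5254). Under it the factors split 8 higher and 1 lower in BSC against non-basal cells and 1 and 4 between the airway gates. Fits on the compared libraries alone passed 9 factors in BSC against non-basal cells, both without and with the mouse as a replicate block, in place of 6 in the fit on all 18 libraries. Between the airway gates they passed 5 without and 6 with the block, in place of 7. No other call of a factor changed with the block. Leaving out 1 library at a time gave 33 to 36 separated neighbouring pairs in place of 35. The count of tested factors that differ among the populations was 10 in each of these fits. Factors under 10 reads in a population (*Trp63* and *Sox9* in alveolar cells, *Sox2* in part of the EpCAM-negative libraries) are limited by depth.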

Other observations

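Other transcription factors of airway and alveolus, 45 genes that all passed the filter, were split in each comparison. BSC exceeded non-basal cells in 15 and were lower in 12, where 48.2% of all tested genes differed. The shares over all genes given with the paralogues are the background for the other comparisons. *Foxm1*, a factor of dividing cells, was at 4.47 ± 0.176 against 1.74 ± 0.152 RPKM and *Gli3*, a hedgehog effector, at 6.49 ± 0.863 against 1.14 ± 0.297 RPKM, whereas *Spdef*, a secretory and goblet cell factor, was at 4.48 ± 0.112 against 23.2 ± 2.30 RPKM and *Elf5* at 1.41 ± 0.455 against 20.1 ± 0.686 RPKM. With library size alone, 23 were called higher in BSC. CD24hi exceeded CD24lo cells in 15 and were lower in 21, with the multiciliogenesis factors *Foxj1* at 626 ± 62.5 against 70.6 ± 32.1 RPKM and *Myb* at 58.5 ± 10.3 against 12.6 ± 2.73 RPKM. The other comparisons gave 16 higher and 21 lower for BSC against alveolar cells, 18 and 13 for CD24lo against alveolar cells, 14 and 20 for EpCAM-negative against alveolar cells and 16 and 17 for non-basal against CD24lo cells.

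The tracheal libraries differed from the lung airway libraries in patterning factors beside the 10. *Pax9*, a foregut and squamous factor, was at 50.9 ± 7.31 RPKM in BSC, 41.6 ± 3.25 RPKM in non-basal cells, 7.38 ± 1.00 RPKM in CD24lo and 0.857 ± 0.0515 RPKM in CD24hi cells. *Sox21*, which is expressed with *Sox2* in airway, was at 65.4 ± 11.4, 49.9 ± 5.97, 6.29 ± 0.601 and 0.848 ± 0.0979 RPKM in the same order. The Iroquois factor *Irx1* peaked in alveolar cells at 154 ± 7.45 RPKM, beside 23.2 ± 1.19 RPKM in BSC. Organ, mouse and depth cannot be told apart in these differences. The 7 oesophageal and squamous markers summed to 1302 to 1361 CPM in BSC, 638 to 860 CPM in non-basal cells and at most 36.9 CPM in the lung libraries. *Pax9* is itself in this list, so the sum is not independent of it. The part of oesophageal or squamous cells in the *Pax9* level was not tested.

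The 5 most similar genes of each factor depended in part on the scale: 33 of the 50 were the same with log2(RPKM + 1) and 28 of the 50 with the 6 population means.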
